A study of Mus musculus with 12 samples.

Results

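MHC class I presentation was described through 9 genes in antibody-secreting cells (ASCs), which are the B lineage cells, dividing or not, that release immunoglobulin. The 9 genes were chosen by symbol from the 32285 genes listed in the count tables: the class I heavy chains H2-K1 and H2-D1, their light chain B2m, the peptide transporter subunits Tap1 and Tap2, the loading factor Tapbp, the inducible proteasome subunits Psmb8 and Psmb9, and the class I transactivator Nlrc5. All 9 occurred once in the tables and all 9 had counts in every library. They were read in 9213 of 39949 barcodes called as cells. These barcodes held at least 500 unique molecular identifiers (UMIs) outside genes whose symbols start with Igh, Igk or Igl, and 1 light-chain V gene took at least 50% of their light-chain V UMIs.

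The cells came from the thymus, spleen and bone marrow of male and female mice aged 3 months, of strain Prdm1-eYFP on a C57BL/6 background, which carries a yellow fluorescent reporter for the ASC transcription factor Prdm1. All groups share that reporter and none received a treatment named in the labels. Cells with the phenotype B220+/- CD138HI IgD- CD90.2- Prdm1-eYFP+ were sorted from pools of 3 mice, and each sex and organ gave 1 droplet library with 5' chemistry. There is thus no replicate of any sex and organ, and the labels do not say whether the pools for the organs of 1 sex held the same animals.

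MHC class I molecules display peptides from proteins made inside the cell to CD8 T cells. The proteasome cuts those proteins, and in lymphoid cells and under interferon its catalytic subunits are partly exchanged for inducible ones such as those encoded by Psmb8 and Psmb9. The transporter of Tap1 and Tap2 carries the peptides into the endoplasmic reticulum, where tapasin, the product of Tapbp, helps load them onto a heavy chain paired with B2m. ASCs fill the same compartment with immunoglobulin, and B cells that become ASCs reduce their class II presentation.

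In the GRCm38 annotation (GENCODE vM21) 7 members lie on chromosome 17. Nlrc5 lies on chromosome 8 (94434356 to 94527272, plus strand) and B2m on chromosome 2 (122147686 to 122153083, plus strand). H2-K1 spans 33996017 to 34000347 on the minus strand and H2-D1 35262730 to 35267499 on the plus strand. Psmb9 (34181987 to 34187764, minus strand) and Tap1 (34187553 to 34197225, plus strand) are divergent neighbours whose annotated ends overlap, followed by Psmb8 (34197721 to 34201454) and Tap2 (34203527 to 34216321). Tapbp lies at 33915899 to 33929292. The RefSeq promoter table (GRCm38.p6) held 7 of the 9 members. In that table the starts of Psmb9 and Tap1 are 225 bases apart, so both genes read out from 1 short stretch. Tap2 and Nlrc5 were not matched there.

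The heavy chain and B2m promoters are shown because H2-K1, H2-D1 and B2m encode the 2 chains of the class I molecule and, below, did not all move together. Capitals mark matches on either strand to GGGGATTCC (an NF-kB site), GAANNGAAA and GAAANNGAA (elements bound by interferon regulatory factors), TGACG (the core of the X2 box and of cAMP response elements) and CCAAT (read as ATTGG on the other strand, the Y box). Upstream of H2-K1, chr17:34000348-34000547 on the minus strand, the 200 bases before the RefSeq start were as follows.
H2-K1: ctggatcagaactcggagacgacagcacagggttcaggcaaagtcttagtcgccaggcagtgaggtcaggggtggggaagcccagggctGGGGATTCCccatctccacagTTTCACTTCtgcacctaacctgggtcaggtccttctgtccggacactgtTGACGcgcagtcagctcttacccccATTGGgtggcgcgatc
Upstream of B2m, chr2:122147487-122147685 on the plus strand, 199 bases ending 2 bases before the start were as follows.
B2m: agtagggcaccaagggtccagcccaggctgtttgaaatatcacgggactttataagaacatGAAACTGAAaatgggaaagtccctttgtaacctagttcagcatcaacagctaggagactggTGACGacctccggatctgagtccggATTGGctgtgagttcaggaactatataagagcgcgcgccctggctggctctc

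H2-K1 and H2-D1 shared the NF-kB letters followed by the interferon regulatory factor letters, within 30 bases that differed at 1 position counted from the left (A18T, from H2-K1 to H2-D1).
H2-K1, chr17:34000429-34000458, minus strand: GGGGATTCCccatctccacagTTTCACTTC
H2-D1, chr17:35262923-35262952, plus strand: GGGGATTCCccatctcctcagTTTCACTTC
The letters GGGGATTCC occurred in 0.213% and GAANNGAAA in 6.31% of the 250-base upstream stretches of all 32851 promoters in the table. B2m had neither string of letters, but had 1 match to GAAANNGAA, which 7.13% of the promoters held. Other forms of the NF-kB site were not searched, so B2m may hold one in other letters. These 3 promoters also had TGACG and ATTGG with 20 bases between them.
H2-K1, chr17:34000359-34000388, minus strand: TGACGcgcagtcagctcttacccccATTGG
H2-D1, chr17:35262993-35263022, plus strand: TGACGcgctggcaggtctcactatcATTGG
B2m, chr2:122147609-122147638, plus strand: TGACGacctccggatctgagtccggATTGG
TGACG alone occurred in 17.8% and CCAAT in 33.8% of all promoters, whereas the pair at this spacing occurred in 30 of 32851, or 0.0913%. The spacing was read from these sequences and then counted, and H2-M3, a nonclassical class I gene, was also among the genes with the pair. Tap1 and Psmb9 had both letters without this spacing, Tapbp had only CCAAT, and Psmb8 had neither. Both H2-D1 stretches lie within the first exon of a longer GENCODE transcript of H2-D1. A match describes the letters of the reference and not a bound site.

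Depth bounded every value. The cells by the rule numbered 1325 (female) and 1769 (male) in bone marrow, 3661 and 1970 for spleen, and 133 and 355 for thymus, with 282801 (female thymus) to 21365508 UMIs (female spleen) in all outside immunoglobulin genes. Levels are UMIs of a gene per 1000000 of these UMIs (CPM), and the intervals of single libraries are exact 95% Poisson intervals that cover counting error only. The sex-specific transcripts Xist and Ddx3y matched the labelled sex in all 6 libraries. All 7 ASC markers were detected in every library, at a summed 55166 to 108546 CPM. The rule asks for no ASC marker, so B cells in the sorted fraction can pass it. No cell was left out for B cell markers, whose levels are given by class below, and the share of B cells was not estimated. Of 6 thymic epithelial genes, Foxn1, Krt5 and Psmb11 were at 0 in all 6 libraries. Epcam, which carried most of that list's UMIs, ranged from 60.1 CPM in female thymus to 189.5 CPM in female spleen. Neutrophil markers stood at 510 CPM in the female and 1355 CPM in the male bone marrow library against at most 0.1 CPM elsewhere. T cell markers summed to 77.8 CPM in the female and 29.9 CPM in the male thymus library and to 8.5 to 13.0 CPM elsewhere. Library pairs shared 55 of the rule's barcodes in all. More of the rule's cells, 570, had a barcode that occurs anywhere in another library's cell list. Leaving these out took the cells from 133 to 100 in female thymus and from 355 to 291 in male thymus. Values without them are given with the alternatives.

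H2-K1 had a level of 4289 CPM in the female and 4275 CPM in the male bone marrow library. It was 5435 and 5499 CPM for spleen and 7652 and 5941 CPM for thymus, in the same order of the sexes. H2-D1 followed the same order, with 2987 and 3218 CPM for bone marrow, 3814 and 3843 for spleen, and 4767 and 4237 for thymus. In both sexes and for both heavy chains, CPM was lowest in bone marrow and highest in thymus. In females that order between spleen and thymus did not survive TMM scaling, which corrects for a few very abundant transcripts. Scaled H2-K1 was 6689 in female spleen and 6541 in female thymus, and scaled H2-D1 was 4694 and 4074. In males the order was kept, with 5145 in spleen and 5348 in thymus for H2-K1 and 3597 and 3814 for H2-D1. B2m went another way, with 4775 and 4663 CPM for bone marrow, 6281 and 3608 for spleen, and 2956 and 3573 for thymus. Both thymic libraries lay below all others for B2m, although in the male the thymus and spleen values differed by less than counting error. How often all genes show such orders was not counted, and H2-K1, H2-D1 and B2m did not pass the test below.

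**Figure D1:**
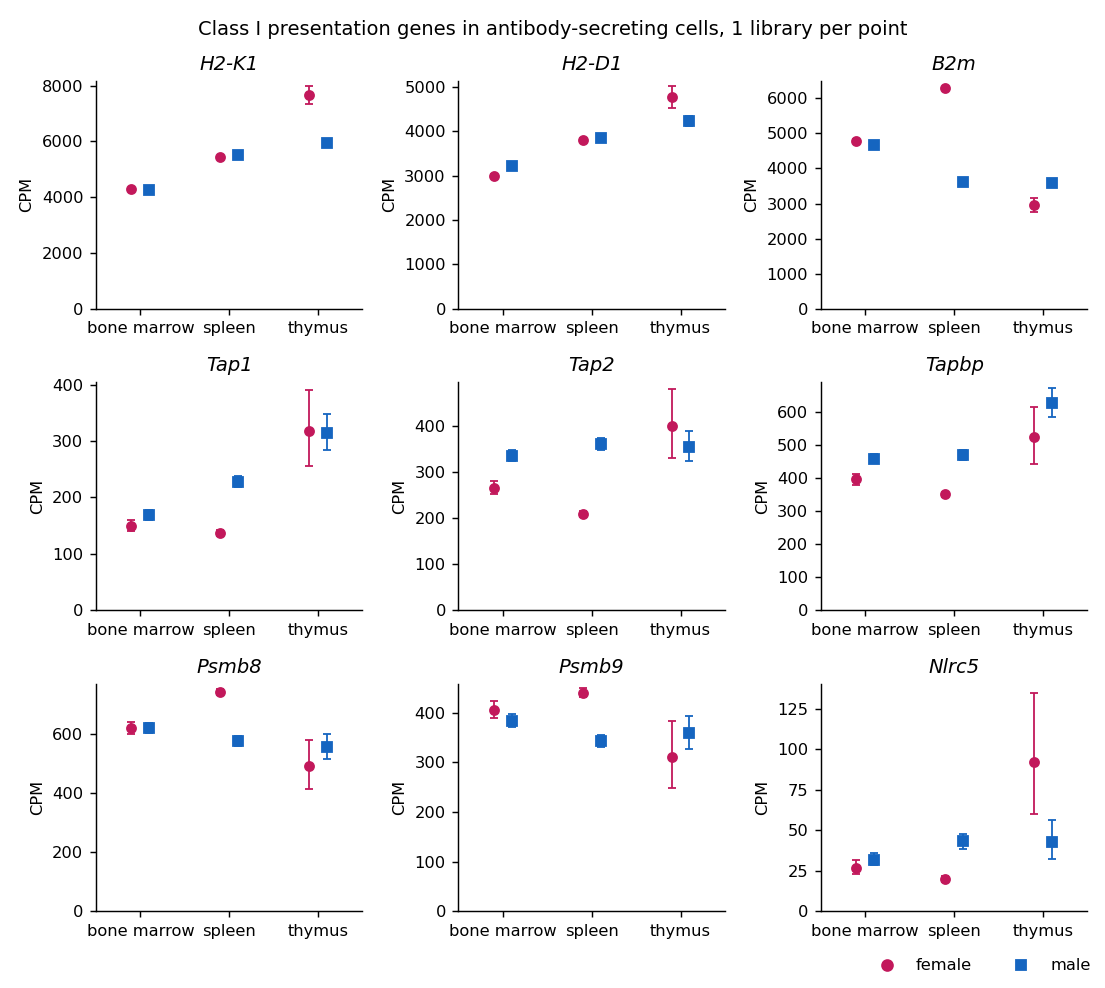
Level of each of the 9 members in CPM (vertical axis, from 0) by tissue (horizontal axis), with 1 point per library, circles for female and squares for male, and exact 95% Poisson intervals. H2-K1 and H2-D1 are lowest in bone marrow and highest in thymus in CPM, a spleen-to-thymus order that TMM scaling does not keep in females, while B2m is lowest in the thymic libraries.

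Of the peptide transporter subunits, Tap1 had its highest CPM in the thymic libraries and Tap2 was not set apart. Tap1 stood at 149 (female) and 169 CPM (male) for bone marrow, 136 and 228 for spleen, and 318 and 314 for thymus, so that both thymic libraries lay above the other 4, before and after TMM scaling. How many of all genes show that order was not counted. In the test below Tap1 did not pass, with an edgeR adjusted p of 0.56 against bone marrow and 0.64 against spleen. Tap2 stood at 266 and 335 CPM for bone marrow, 208 and 359.7 for spleen, and 399.6 and 355 for thymus, and there the spleen and thymus overlapped. Tapbp ranged from 349.96 CPM in female spleen to 627 CPM in male thymus. Its thymic libraries, at 523 (female) and 627 CPM (male), also lay above the other 4 in CPM. After TMM scaling female thymus (447) lay below male bone marrow (466).

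The inducible proteasome subunits were in contrast highest in female spleen and lowest in female thymus. Psmb8, which replaces Psmb5, measured 621 CPM in both bone marrow libraries, 743 (female) and 576 CPM (male) for spleen, and 492 and 557 for thymus. As for B2m, both thymic libraries lay below all others, before and after TMM scaling, and Psmb8 did not pass the test below. Psmb9, which replaces Psmb6, ranged from 311 CPM in female thymus to 440.2 CPM in female spleen. Nlrc5, whose product is recruited to class I promoters, was the scarcest member, with 26.8 and 31.9 CPM for bone marrow, 19.99 and 43.1 for spleen, and 91.9 and 42.8 for thymus. The value in female thymus rested on 26 UMIs. Over the 6 libraries the highest level exceeded the lowest by 1.41-fold (Psmb9) to 4.60-fold (Nlrc5) in CPM. Without female thymus the span of Nlrc5 was 2.16-fold. After TMM scaling the spans ran from 1.31-fold (Tapbp) to 3.19-fold (Nlrc5), and that of Psmb9 was 2.04-fold.

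None of the 9 members passed the test in any contrast of tissue or sex. The test was edgeR's quasi-likelihood test on summed counts of the 6 libraries, with sex and tissue as additive terms, with 2 residual degrees of freedom and Benjamini-Hochberg adjustment at 0.05 over 11268 genes. It called 0.719% of the genes for thymus minus bone marrow, 0.559% for thymus minus spleen, 0.39% for spleen minus bone marrow and 0.39% for male minus female. In thymus minus bone marrow the log2 difference was 0.72 ± 0.35 (SE) for Nlrc5 and 0.72 ± 0.33 for Tap1, with edgeR adjusted p of 0.57 and 0.56. These were the only members with an unadjusted p under 0.05 in any of the 4 contrasts, at 0.0496 and 0.0421, and DESeq2 called none either. The Nlrc5 value rested on female thymus: it was 0.088 without that library and 1.55 without male thymus. H2-K1 differed by 0.38 ± 0.52, H2-D1 by 0.26 ± 0.50, Tapbp by 0.16 ± 0.38 and Tap2 by 0.059 ± 0.36. B2m differed by -0.78 ± 0.54, Psmb8 by -0.50 ± 0.41 and Psmb9 by -0.48 ± 0.38. These 3 values were -0.33, -0.19 and -0.15 without female thymus and -1.36, -0.89 and -0.92 without male thymus. Over the 9 members the median was 0.16, against -0.017 over all genes tested.

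In the other contrasts the members' values had these ranges. Thymus minus spleen ran from -0.86 ± 0.55 (B2m) to 0.68 ± 0.34 (Nlrc5), spleen minus bone marrow from -0.11 ± 0.35 (Tap2) to 0.37 ± 0.52 (H2-K1), and male minus female from -0.33 ± 0.45 (B2m) to 0.18 ± 0.29 (Tap2), and the lowest edgeR adjusted p among them was 0.56. Without male spleen, Nlrc5 passed in thymus minus spleen with a log2 difference of 1.16 (edgeR adjusted p 0.0177), and 933 genes were then called instead of 63. The value was 1.52 without male thymus and 0.060 without female thymus, and it did not pass in either case. The B2m value in that contrast was -0.18 without female spleen and -1.49 without male spleen. The interval of ±2 SE reached from -0.67 to 1.43 for H2-K1 in thymus minus bone marrow. Without scaling beyond library totals the median of all genes in this contrast moved from -0.017 to 0.20, and again no member passed.

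The interferon-responsive genes did differ in the same libraries. Of 10 tested genes of a 12-gene interferon list, 7 rose in thymus against bone marrow and none fell, among them Usp18, a negative regulator of interferon signalling (log2 difference 4.79 ± 0.45), Rtp4 (5.43 ± 0.66), Irf7, a transcription factor of the interferon response (2.65 ± 0.33), and Xaf1 (2.45 ± 0.33). Of 14 genes that regulate class I transcription 2 rose and none fell, and those that rose included Irf9 (1.37 ± 0.29), which transmits interferon signals. Irf1 and Rfx5 did not pass. In edgeR no gene passed among 10 tested nonclassical class I genes, 9 loading and trimming genes, 5 immunoproteasome partners or 14 constitutive proteasome genes, where 1, 1, 0 and 2 had an unadjusted p under 0.05. All 14 constitutive proteasome genes had differences below 0, with a median of -0.64. The lists were chosen with earlier results of these data known, and the difference between lists was not tested. T cell marker Trbc2 was higher in thymus (6.87 ± 0.94) and 6 of 6 neutrophil markers were lower; their part in the member values was not tested.

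**Figure D2:**
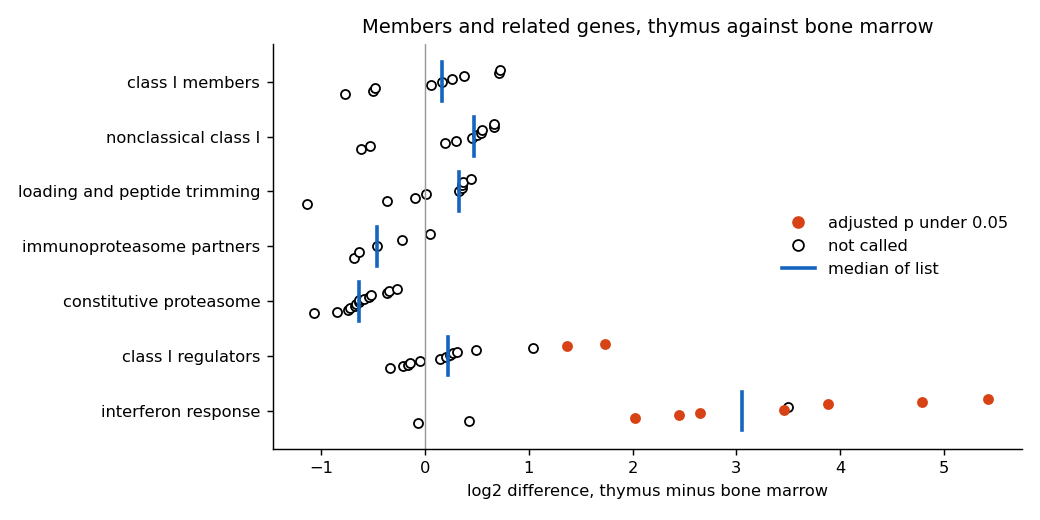
Log2 difference, thymus minus bone marrow (horizontal axis), for each tested gene of 7 lists (rows), from the additive edgeR fit over 6 libraries. Filled points have an adjusted p under 0.05, open points do not, and the vertical bar is the median of the list, which is 0.16 for the 9 members and 3.05 for the interferon list.

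Over the 3 catalytic pairs the inducible share lay between 61.5% and 78.98%, and some libraries differed beyond counting error. Psmb8 made up 73.7% (female) and 74.2% (male) of Psmb8 plus Psmb5 UMIs for bone marrow, 71.3% and 74.96% for spleen, and 78.98% and 74.5% for thymus. The exact 95% binomial interval in female thymus ran from 72.2% to 84.7%, where the pair had 139 and 37 UMIs. In female spleen it ran from 70.7% to 71.9% and in male spleen from 73.9% to 76.0%, so the spleen intervals did not overlap. Psmb9 made up 61.5% (female spleen) to 69.3% (female thymus) of the UMIs it shares with Psmb6, and Psmb10 64.3% (male spleen) to 71.8% (male bone marrow) of those it shares with Psmb7. The Psmb10 intervals of male spleen (61.9% to 66.6%) and male bone marrow (69.9% to 73.7%) were also apart. All 3 inducible subunits thus exceeded the constitutive subunit they replace in all 6 libraries, in UMIs.

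Cells were next divided by their most abundant heavy-chain constant gene, taken here as the class of antibody they make. IgM cells numbered 85 (female thymus) to 2691 (female spleen) per library, IgA cells 25 to 253, and IgG cells (any of 4 Ighg genes) 23 to 714. In female spleen the leading gene took at least 80% of heavy-chain UMIs in 2542 of 2691 IgM cells. It did so there in 113 of 253 IgA and 217 of 714 IgG cells. In male spleen this held for 15 of 39 IgA and 37 of 190 IgG cells, and in female thymus for 24 of 25 and 17 of 23. Fits at that share lack the IgA sum of male spleen and the IgG sum of female thymus, which fell under 20 cells. Counts were summed for each library and class, which gave 18 sums, and edgeR compared the classes with the library as a block (10 residual degrees of freedom, 7462 genes tested). Each comparison is thus within 1 droplet library.

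H2-K1 was lower in IgA than in IgM cells in bone marrow and spleen of both sexes. For bone marrow its level was 4410 (female) and 4296 CPM (male) in IgM, 2031 and 2338 CPM in IgA, and 4973 and 5371 CPM in IgG cells. In spleen it was 5529 and 5511 CPM in IgM, 4071 and 3970 CPM in IgA, and 5509 and 5745 CPM in IgG cells. In thymus it was 7575 and 5783 CPM in IgM, 7884 and 5434 CPM in IgA, and 7719 and 7159 CPM in IgG cells. The IgA sums of bone marrow were thus less than the IgM sums by more than counting error, and those of thymus were not. H2-D1 showed the same pattern, from 1548 CPM in IgA cells of female bone marrow to 4926 CPM in IgM cells of female thymus, and was lower in IgA than IgM in 6 of 6 libraries.

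**Figure D3:**
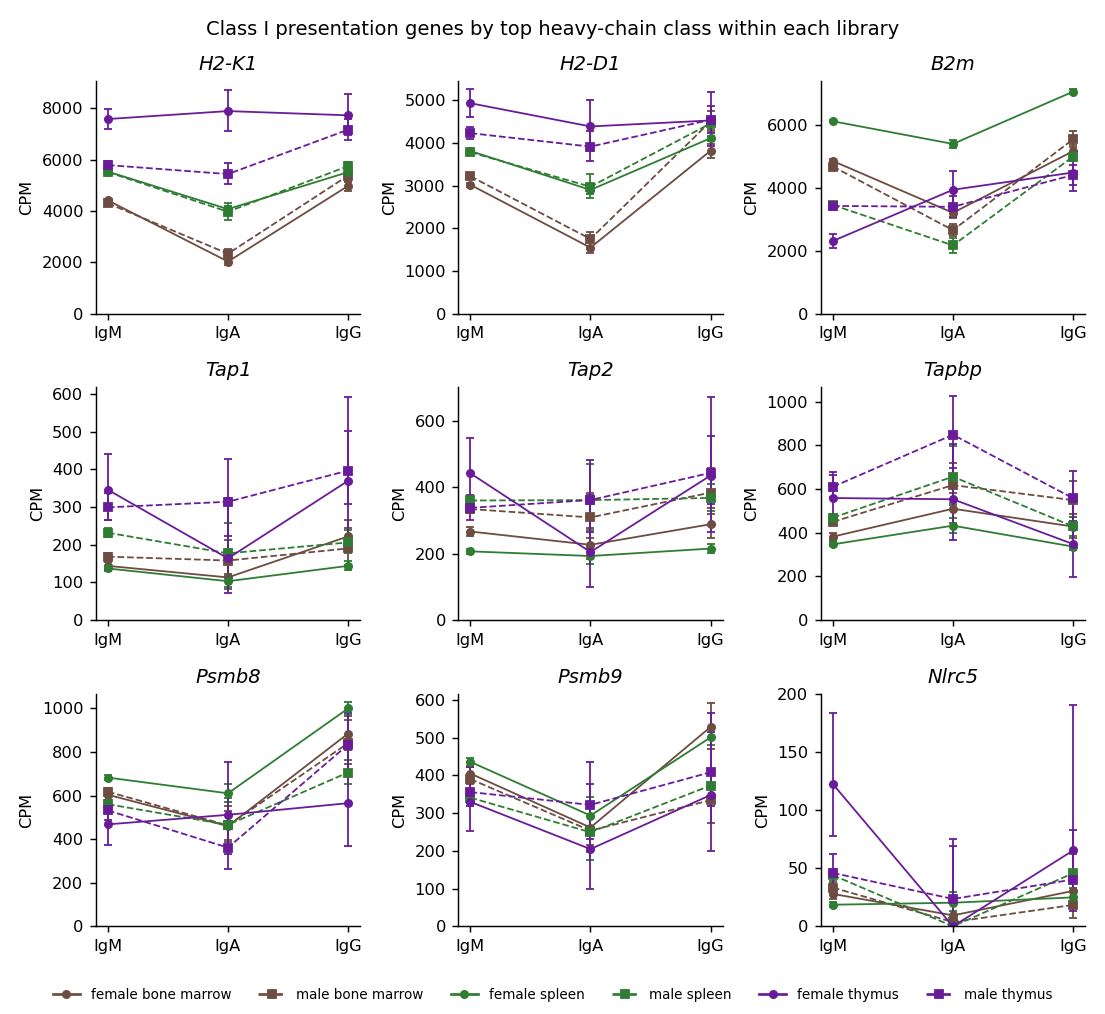
Level of each member in CPM (vertical axis, from 0) in IgM, IgA and IgG cells (horizontal axis), with lines joining the 3 sums of 1 library and exact 95% Poisson intervals. The IgA values of H2-K1 dip to 2031 and 2338 CPM in bone marrow and remain at 7884 and 5434 CPM in thymus, and Tapbp peaks in IgA cells in 5 of 6 libraries.

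Most members differed between IgG and IgA cells. IgG minus IgA called 10.5% of all genes, 5.56% higher and 4.89% lower in IgG, and 7 of the 9 members, 6 higher and 1 lower. Psmb8 was higher in IgG in 6 of 6 libraries, with a log2 difference of 0.75 ± 0.12 and an edgeR adjusted p of 4.0e-05. Its levels were 885 and 841 CPM in IgG against 460.1 and 463 CPM in IgA cells for bone marrow (female, then male), 999.9 and 706 against 611 and 466 for spleen, and 565 and 834 against 512 and 361 for thymus. Psmb9 was also higher in 6 of 6 libraries (0.64 ± 0.12, edgeR adjusted p 0.00035). H2-D1 differed by 0.62 ± 0.15, H2-K1 by 0.58 ± 0.15, B2m by 0.59 ± 0.16 and Tap1 by 0.46 ± 0.13, with edgeR adjusted p from 0.0041 to 0.0168. H2-K1 was higher in 5 of 6 libraries and the other 3 in 6 of 6. H2-D1, Psmb8 and Psmb9 passed with any 1 library left out, whereas H2-K1 did not pass without female or male bone marrow (0.47 and 0.48), B2m without male bone marrow or male spleen (0.53 and 0.44), and Tap1 without female bone marrow or female spleen (0.38 and 0.42). Tap1 also missed the threshold when a class required 80% of a cell's heavy-chain UMIs (0.37, edgeR adjusted p 0.19) and without cycling cells (0.28, edgeR adjusted p 0.23).

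Tapbp was the exception and was lower in IgG than IgA cells in 6 of 6 libraries (-0.44 ± 0.11, edgeR adjusted p 0.0086). It missed the threshold when a cell's leading light-chain V gene had to take 80% (-0.38, edgeR adjusted p 0.085). That fit lacks the IgA sums of male spleen (10 cells), female thymus (18) and male thymus (16) and the IgG sum of female thymus (17), all under 20 cells. The IgA levels of Tapbp were 509.6 and 618 CPM for bone marrow, 432 and 656 for spleen, and 553 and 848 for thymus, against 428 and 549, 336 and 429, and 348 and 558 CPM in IgG cells. Tap2 differed by 0.22 ± 0.12 and did not pass. Nlrc5 differed by 0.99 ± 0.34 and missed the threshold with an edgeR adjusted p of 0.061, but passed in 3 of 16 alternatives: no scaling beyond library totals (1.01), no filter on low counts (1.04) and female spleen left out (2.08). Its IgA sums held only 4, 1, 27, 0, 0 and 3 UMIs, for bone marrow, spleen and thymus in turn with the female library first. For the counts of 0 the exact 95% Poisson intervals reached up to 24.2 CPM in male spleen and 75.5 CPM in female thymus, and those of the IgM sums there began at 39.2 and 77.6 CPM.

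**Figure D4:**
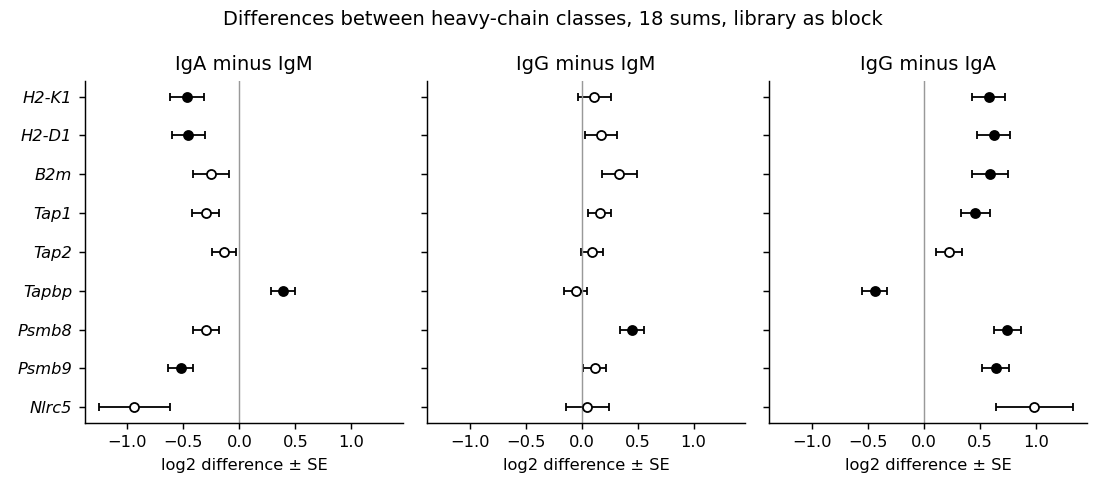
Log2 differences between heavy-chain classes with their standard errors (horizontal axis) for the 9 members (rows), from edgeR over 18 sums with the library as a block. Filled points have an adjusted p under 0.05, of which there are 4 for IgA minus IgM, 1 for IgG minus IgM and 7 for IgG minus IgA.

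IgA minus IgM called 7.99% of all genes (3.98% higher and 4.01% lower in IgA) and 4 of the 9 members. Psmb9 (-0.53 ± 0.11, edgeR adjusted p 0.0024), H2-K1 (-0.47 ± 0.15, 0.046) and H2-D1 (-0.45 ± 0.14, 0.0448) were lower in IgA cells, and Tapbp (0.39 ± 0.11, 0.0169) was higher. Nlrc5 (-0.94 ± 0.31), Tap1 (-0.30 ± 0.12) and Psmb8 (-0.30 ± 0.12) missed the threshold with edgeR adjusted p of 0.062, 0.13 and 0.13, and B2m differed by -0.25 ± 0.16. When a class required 80% of a cell's heavy-chain UMIs, Psmb9 alone still passed, while H2-K1 and H2-D1 had differences of -0.53 and -0.51 that did not. H2-K1, H2-D1 and Tapbp also missed the threshold without female bone marrow, female spleen, male bone marrow or male spleen, with H2-K1 at -0.33 to -0.45, H2-D1 at -0.34 to -0.46 and Tapbp at 0.38 to 0.42, against 0.39 with all libraries, while Psmb9 passed under each of the 16 alternatives run. H2-K1 and H2-D1 missed it with RLE scaling (-0.45 and -0.43), H2-D1 and Tapbp without cycling cells (-0.42 and 0.31), and Tapbp with no filter on low counts (0.30). Nlrc5 passed in 6 of 16 alternatives, among them DESeq2 (-1.48) and the fit without female spleen (-2.25, edgeR adjusted p 0.00139). Psmb8 passed in 3, among them DESeq2 (-0.29, adjusted p 0.0147), and B2m in 4. The 4 fits that called B2m all lack the IgA sum of female thymus. IgG minus IgM called 12.9% of all genes (5.74% higher in IgG) but, of the members, only Psmb8 (0.45 ± 0.11, edgeR adjusted p 0.0034), which was higher in IgG in 6 of 6 libraries. B2m was also higher in 6 of 6 (0.34 ± 0.16) and did not pass, with an edgeR adjusted p of 0.17. Its value was 0.84 with the 80% class share, where it passed (edgeR adjusted p 0.00141), and 0.00059 without shared barcodes.

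Nonclassical class I genes differed between classes as well. In IgG minus IgA 5 of 9 tested were higher and none lower, among them H2-Q7 (1.04 ± 0.16), H2-Q6 (0.71 ± 0.14), H2-M3 (0.69 ± 0.14) and H2-Q4 (0.67 ± 0.14). In IgA minus IgM 4 of 9 were lower and none higher. Windows of 50 bases of H2-K1 and H2-D1 transcripts recurred in other genes' transcripts at 9.63% and 12.8%. The genes sharing most were H2-Q10, H2-D1 and H2-Q7 for H2-K1, and H2-Q1, H2-K1 and H2-Q7 for H2-D1. Reads from these windows may be missing from the counts or assigned to another gene, which was not examined. Of 5 immunoproteasome partners, Pomp, an assembly factor (0.61 ± 0.14), and the activator subunits Psme1 and Psme2 (0.41 ± 0.13 and 0.43 ± 0.13) were higher in IgG than IgA, while Psmb10 differed by 0.12 ± 0.13. Of 14 constitutive proteasome genes 3 were higher, including Psmb6 (0.42 ± 0.12), and Psmb5 (0.35 ± 0.13) and Psmb7 (0.21 ± 0.14) did not pass. Of 9 loading and trimming genes Pdia3 (0.52 ± 0.14), a partner of tapasin, and the chaperone Hspa5 (0.49 ± 0.13) were higher. Among 14 regulators only Irf2, an interferon regulatory factor, passed, and it was lower in IgG (-0.49 ± 0.13). Irf1 and Rfx5 did not pass in any class contrast.

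Markers of other states moved with the class contrasts. In IgG minus IgA 4 of 5 tested B cell markers were higher (H2-Aa 1.35 ± 0.22, H2-Ab1 1.11 ± 0.15, Ms4a1 0.76 ± 0.22, Cd74 0.68 ± 0.15). Their summed level, which is mostly Cd74, was 8541 to 13343 CPM in the IgA sums and 16205 to 31769 CPM in the IgG sums. Of 15 cycling genes 6 were higher in IgG, with summed levels of 152 to 2212 CPM in IgG and 215 to 1594 CPM in IgA cells. Leaving out cycling cells kept 6 of the 9 members called, Tap1 being the one lost. The ASC marker list had a summed level of 39053 to 77935 CPM in IgG and 91553 to 143178 CPM in IgA cells, and over all cells most of that sum was Jchain, the joining chain of IgM and IgA. Of its 7 genes Tnfrsf17 (-2.61 ± 0.19), Jchain (-1.25 ± 0.19) and Irf4 (-0.56 ± 0.11) were lower in IgG, Mzb1 was higher (0.67 ± 0.14), and Prdm1, Xbp1 and Sdc1 did not pass. Epcam did not pass in this contrast, and was higher in IgA and in IgG than in IgM cells (0.68 ± 0.16 and 0.44 ± 0.14). Neutrophil markers were at 594 (female) and 1441 CPM (male) in the IgM sums of bone marrow and at 98.5 to 120.3 CPM in their IgA and IgG sums. The part of B cell, ASC and neutrophil markers and of Epcam in the member differences was not tested.

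Tissue differences were then read within each class. Among IgA cells H2-K1 was higher in thymus than bone marrow by a log2 difference of 1.45. The fit had 2 residual degrees of freedom, and edgeR's adjusted p over the 3795 genes tested was 0.35. None of 8 tested members passed, where 0.395% of those genes did. H2-D1 differed by 1.19, and these were the only 2 with an unadjusted p under 0.05 (0.0027 and 0.0098). Without female spleen, which is in neither group compared, H2-K1 and H2-D1 passed (1.37 and 1.11, edgeR adjusted p 0.00164 and 0.046). DESeq2 called none of the 8. Within IgM and within IgG cells none of the 9 members passed either, against 0.645% and 0.289% of genes for thymus minus bone marrow. For thymus minus spleen no member passed in any class, where 0.636% of genes did in IgM, 0.0791% in IgA and 0.401% in IgG. Nlrc5 within IgM cells, thymus minus bone marrow, had a difference of 0.84 (unadjusted p 0.0271), and it passed without male thymus (1.85, edgeR adjusted p 0.016), when female thymus stands alone for its tissue. Without female thymus it was 0.0896. Against spleen its IgM difference was 0.90 (unadjusted p 0.0172), and it passed without male spleen (1.51, edgeR adjusted p 0.00938) or without male thymus (1.93, edgeR adjusted p 0.0142), while it was 0.17 without female thymus. Tap1 within IgG, thymus minus spleen, was the only other value in these 5 contrasts with an unadjusted p under 0.05 (0.92, p 0.034), and DESeq2 called no member in any of them. Whether the gap between IgA and IgM cells differs between thymus and bone marrow was tested directly as an interaction, which called 0.148% of 8132 genes and none of the 9 members. Its log2 values were 1.02 ± 0.33 for B2m, 0.95 ± 0.31 for H2-K1 and 0.75 ± 0.30 for H2-D1, with unadjusted p of 0.0034, 0.0036 and 0.0167 and edgeR adjusted p of 0.44, 0.44 and 0.50. The narrower gap of H2-K1 in the thymus is therefore a description of these libraries, where the IgA sums held 25 and 31 cells.

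At the level of single cells H2-K1 was also lower in IgA than IgM cells in bone marrow and spleen. After thinning to 1000 UMIs per cell (shallower cells left out, 5 female and 4 male IgA cells in bone marrow), the median IgA cell of bone marrow had 2 UMIs of H2-K1 in both sexes, against 4 in IgM cells, and against 5 and 4.5 in IgG cells. In spleen the medians were 3 and 3.5 in IgA and 5 and 5 in IgM cells. In female thymus, after 26 of 133 cells were left out, the 18 IgA cells had a median of 3.5 and a mean of 6.17 UMIs, and the 72 IgM cells a median of 7 and a mean of 7.25. In male thymus the 26 IgA cells had a median of 5 and a mean of 6.23, and the 227 IgM cells 4 and 5.45. In both thymic libraries the class with the higher mean per thinned cell was thus not the one with the higher summed level. B2m had a mean per thinned cell of 3.13 and 3.24 for bone marrow, 5.39 and 2.66 for spleen, and 1.88 and 2.14 for thymus, which lay below its summed level per 1000 UMIs in each of the 6 libraries. For H2-K1 this was so in both thymic libraries, and in the other 4 its mean per thinned cell lay above its summed level.

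Free RNA held the same transcripts. The barcodes outside the cell lists, with 1 to 100 UMIs, gave B2m at 4048 to 5255 CPM and H2-K1 at 2477 to 3306 CPM. B2m in the cells was 0.563 to 1.31 times its level in free RNA, and below it in male spleen and in both thymic libraries. Psmb9 was below it in the same 3 libraries (0.993, 0.858 and 0.931 times) and at most 1.19 times its level there in the others, and Psmb8 was 1.03 to 1.37 times. H2-K1 was 1.496 to 2.39 times its level in free RNA and Nlrc5 0.771 times (female spleen) to 6.07 times (female thymus). From light-chain V genes other than the leading one, free RNA was estimated at 5.09% (female thymus) to 21.1% (female spleen) of the cells' UMIs. With that share subtracted, no member passed in a tissue or sex contrast and 7 of 9 passed in IgG minus IgA.

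The members did not vary as 1 block over the 18 sums of library and class. On log2(CPM + 1), H2-K1 was most like H2-D1 (Pearson r = 0.96), Tap1 most like Tap2 (0.84), and B2m most like Psmb8 (0.79), while H2-K1 and B2m had an r of 0.24. Psmb9 was most like Psmb8 (0.71) and Nlrc5 most like Psmb9 (0.68). Tapbp had a negative r with B2m (-0.71), Psmb8 (-0.62) and Psmb9 (-0.56). Of 2971 other genes with a mean of at least 50 CPM, those most like the summed members were H2-Q7 (0.93), H2-Eb1, a class II gene (0.92), Ctsz, a lysosomal protease (0.90), Srm, which makes spermidine (0.87), and Tpst1, a sulfotransferase (0.87). H2-Q7 ranged from 109 to 863 CPM and H2-Eb1 from 163 to 1479 CPM. The summed level is mostly H2-K1, H2-D1 and B2m, at 4289, 2987 and 4775 of 13915.5 CPM in female bone marrow. The ranking is thus likeness mainly to those genes, and H2-Q7 shares transcript windows with both heavy chains. The sums share 6 libraries and differ in depth, so these values describe the sums only.

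**Figure D5:**
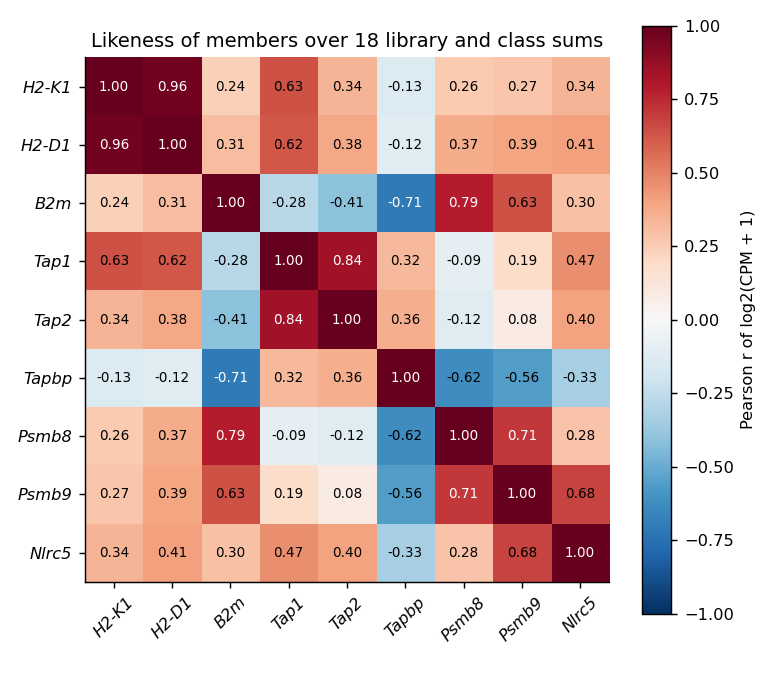
Pearson r of log2(CPM + 1) between each pair of members (rows and columns) over the 18 sums of library and class, on a colour scale from -1 to 1. The heavy chains H2-K1 and H2-D1 reach 0.96 with each other and 0.24 and 0.31 with B2m, while Tapbp is positive only with the transporter genes Tap1 (0.32) and Tap2 (0.36).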

How the data were processed

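The deposited matrices hold raw UMI counts per gene and barcode, with no normalization by the authors. The submitters' processing notes name Cell Ranger 6.0.2, mm10 and GRCm38, and the headers of the unfiltered matrices name Cell Ranger 4. VDJ tables were not used here. All 395 genes whose symbols start with Igh, Igk or Igl were left out of totals and tests.

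Counts were summed over the cells of a library (6 sums), or of a library and class with at least 20 cells (18 sums), and tested with edgeR 4.0.16 (R 4.3.3) after filterByExpr with TMM scaling, glmQLFit and glmQLFTest. Adjusted p-values are Benjamini-Hochberg over all genes tested, with a threshold of 0.05. Printed CPM are not TMM-scaled. DESeq2 1.42.0 was an alternative. The model with 2 residual degrees of freedom treats libraries as independent and sex and tissue as additive. With 1 library per sex and tissue, its residual is the disagreement of tissue differences between the sexes, not a spread between replicates. For each gene edgeR also draws the spread toward that of other genes, so p-values do not rest on the residual degrees of freedom alone. They cover these libraries only. Tested on simulated data for thymus minus bone marrow, the code recovered 94% of 200 genes given a log2 change of 2, with 5 false calls among 11077 genes. Every member's tissue difference was smaller than that change, so the recovery does not tell how often differences of their size would be found. No doublet caller was run.

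The text names all 9 members, at most 4 genes per related list with the lowest adjusted p, always Psmb5, Psmb6, Psmb7, Psmb10, Irf1 and Rfx5, and the 5 genes most like the summed members. Epcam and the 7 ASC markers were named after their values were seen. The members, lists and cell rule were chosen with earlier results of these data known. H2-T10 of the nonclassical list was not analysed here, and 1 gene of the regulator list is not reported here.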

Additional observations from a re-analysis of the deposited data

Results flagged for a closer look

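In female thymus the log2 ratio of IgA to IgM cells in unscaled CPM lay far from the other 5 libraries for Tap2, at -1.11. The IgG to IgA ratio of Tap2 stood apart there as well, at 1.09. The IgA to IgM ratio of Tapbp, at -0.015, was likewise apart from the others. These ratios rest on 25 IgA and 23 IgG cells, and 25 sets of 6 ratios were examined, of which chance alone singles out about 1 in 20.

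For 6 members the log2 ratio of spleen to bone marrow in unscaled CPM had opposite signs in the sexes, each beyond counting error: B2m 0.40 in females and -0.37 in males, Psmb8 0.26 and -0.11, and Psmb9 0.12 and -0.16. Tap1 stood at -0.13 and 0.43, Tap2 at -0.36 and 0.10, and Nlrc5 at -0.42 and 0.43. After TMM scaling the signs were the same in both sexes for Tap1 (0.020 and 0.31) and Tap2 (-0.20 and -0.020), and still opposite for B2m, Psmb8, Psmb9 and Nlrc5. With 1 library per sex and tissue the difference between sexes was not tested. The TMM factor of female spleen, 0.812, was the lowest of the 6. In that library 21.7% of cells were cycling, against 9.01% to 13.5% elsewhere, and their part was not tested.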

How the results depend on the processing

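The tissue fit compares tissues within sex through its sex term, and the class fits compare classes within a library. Without the sex term no member was called for tissue either. No member was called in thymus minus bone marrow, spleen minus bone marrow or male minus female under any of the 17 or 18 alternatives run, which for tissue and sex included DESeq2, RLE or no scaling, other cell filters, free RNA subtracted and shared barcodes left out. Thymus minus spleen ranged from 0 to 1 member with a library left out. IgA minus IgM fell from 4 members to 2 with RLE scaling and to 1 with a class share of 80%, and ranged from 1 to 6 with a library left out; IgG minus IgM went from 1 to 2 with the 80% share, where B2m was added, and IgG minus IgA ranged from 5 to 8, not always the same members. Within classes, leaving out a library gave 0 to 1 member for both IgM contrasts and 0 to 2 for thymus minus bone marrow in IgA.

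No called member changed sign. Among those not called, Tap2 in thymus minus bone marrow turned to -0.014 under 10% mitochondrial UMIs and -0.057 without cycling cells (-0.15 to 0.25 over libraries left out), and Tapbp reached -0.00088 to 0.28 over libraries left out. Tap2 in spleen minus bone marrow spanned -0.27 to 0.052 and B2m in male minus female -0.67 to 0.10. In IgA minus IgM B2m became 0.025 with the 80% share, but was called lower in IgA in 4 of 16 alternatives: sums of at least 50 cells (-0.47), a light-chain share of 80% (-0.46), shared barcodes left out (-0.55) and female thymus left out (-0.45). All 4 lack the IgA sum of female thymus, the only library where B2m was higher in IgA than in IgM cells. That sum held 25 cells by the main rule, 18 with the light-chain share and 19 without shared barcodes, where a sum needed 20. These 4 calls are thus not separate support. In IgG minus IgM that share gave Tap1 -0.088, Tap2 -0.17 and Nlrc5 -0.14; Nlrc5 was -0.22 with DESeq2, -0.16 with a light-chain share of 80% and -0.17 to 0.16 over libraries left out. Tapbp there was 0.023 with sums of 50 cells, 0.046 with the light-chain share, 0.014 without shared barcodes and -0.095 to 0.014 over libraries left out. With sums of 50 cells, the light-chain share or no shared barcodes, the IgG sum of female thymus (23 cells by the main rule) is absent. The causes were not tested.

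With a light-chain share of 80% the Psmb8 share became 73.0% (male bone marrow), 70.2% and 73.7% (female and male spleen), the Psmb9 share 63.6%, 59.8% and 62.3%, and the Psmb10 share 68.7% and 67.8% in spleen. Without cycling cells the Psmb8 share was 72.2% in female spleen, and the Psmb10 share 72.7% and 74.1% in bone marrow and 70.9% and 67.1% in spleen. Counts called over all genes moved by more than 1.5 times: 18 to 351 for thymus minus bone marrow (81), 16 to 933 for thymus minus spleen (63), 3 to 168 for spleen minus bone marrow (44), 6 to 210 for male minus female (44), 246 to 802 for IgA minus IgM (596), 487 to 1191 for IgG minus IgM (960) and 343 to 924 for IgG minus IgA (780). The alternatives with free RNA subtracted in classes, shared barcodes left out, no scaling, and levels with TMM scaling or without female thymus were chosen after seeing the data.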
